A study of Mus musculus with 171 samples.

Results

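The genes described here are 10 genes whose transcription responds to ERK, the last kinase of the pathway that runs from fibroblast growth factor (FGF) receptors through RAS. They were taken by symbol from the deposited count table, where each symbol had 1 Ensembl row: 10 of 49671 gene rows. Egr1, Ier2 and Fos are immediate early genes, Etv4 and Etv5 encode ETS transcription factors, Dusp4, Dusp6, Spry2 and Spry4 encode feedback inhibitors of the pathway, and Myc encodes a transcription factor induced by growth factors. The measured material was single cells of mouse preimplantation embryos, 171 cells of 17 embryos, either wild type (WT, Stat3 +/+) or without Stat3 (MUT, Stat3 -/-). STAT3 relays signals of the cytokine LIF and its relatives.

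Cells of the inner cell mass (ICM) at embryonic day E3.5 came from 5 WT embryos (64 cells) and 5 MUT embryos (55 cells). Cells labelled epiblast (EPI) or primitive endoderm (PrE) came at E3.75 from 3 WT embryos (19 EPI and 10 PrE cells) and 4 MUT embryos (9 EPI and 14 PrE cells), each of which gave both kinds. The stage is that of the sample titles; the source label names E3.5 for every cell. The labels do not name the strain, the allele, the library method or how a cell was assigned to its lineage. The design entry speaks of Stat3-null embryonic stem cells, while the sample labels name embryo cells.

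In the blastocyst, EPI cells secrete FGF4, and ERK signalling through FGF receptors directs ICM cells towards PrE. Active ERK phosphorylates transcription factors that switch on immediate early genes within minutes, without new protein synthesis, and these genes also answer to serum, stress and cell handling. ETS factors of the Etv group, dual-specificity phosphatases (which remove phosphate from ERK) and Sprouty proteins (which restrain signalling between receptor and RAF) follow as a slower response and are widely read as a sign of sustained FGF activity.

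Of the promoter windows in RefSeq (GRCm38.p6; the bases just before an annotated start, 250 in each window), 4 of the 10 genes had one: Fos, Etv5, Dusp6 and Spry2. An immediate early promoter and a feedback promoter are shown, as an example of each of these gene classes. The Fos window is chr12:85473640-85473889 on the plus strand and the Dusp6 window is chr10:99262981-99263230 on the plus strand, both 5′ to 3′. Capitals mark matches to an ETS core (CGGAAG, or CTTCCG where it lies on the other strand), a cyclic AMP response element half-site (TGACG) and a TATA box (TATAAA).
Fos: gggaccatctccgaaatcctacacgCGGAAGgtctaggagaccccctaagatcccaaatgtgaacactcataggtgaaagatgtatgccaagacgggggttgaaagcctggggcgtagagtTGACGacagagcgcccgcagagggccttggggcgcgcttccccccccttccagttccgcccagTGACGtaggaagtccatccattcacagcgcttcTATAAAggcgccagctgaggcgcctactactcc
Dusp6: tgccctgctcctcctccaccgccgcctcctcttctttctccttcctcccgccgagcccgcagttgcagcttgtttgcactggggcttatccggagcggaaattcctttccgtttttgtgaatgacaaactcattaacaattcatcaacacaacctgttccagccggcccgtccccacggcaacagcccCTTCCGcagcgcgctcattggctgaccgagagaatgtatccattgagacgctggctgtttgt
The Fos window held the ETS core at -225 to -220 from the start, the half-site at -129 to -125 and at -66 to -62, and the TATA box at -33 to -28. The Dusp6 window held 1 match, an ETS core on the other strand at -62 to -57. The 2 Etv5 windows and the Spry2 window held none of the 5 motifs searched on both strands, which also included the AP-1 site (TGANTCA) and the serum response CArG box. No 2 matches overlapped. Among all 32851 windows of the table, 13.6% held the ETS core, 17.8% the half-site, 12.4% the TATA box, 6.75% the AP-1 site and 1.47% the CArG box. These matches are descriptions of letters in a window.

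The unit of comparison is the embryo: the counts of its cells of 1 lineage were summed, which gave 24 sums, and levels are counts relative to library size, scaled by TMM (CPM). Depth differed between the stages, with a median per cell of 2000230 to 5915310 counts over E3.5 embryos and of 10014176 to 12112016 over E3.75 embryos and lineages. A letter in the sample titles was also never shared between the stages, so stage and letter cannot be told apart. These depth medians did not overlap between the stages either, though some ICM cells were as deep as E3.75 cells. Sex by Y-linked and Xist counts differed as well. In the ICM 3 of 5 WT and 1 of 5 MUT embryos were male, and at E3.75 1 of 3 WT and 4 of 4 MUT embryos. The Stat3 transcript separated the genotypes as labelled: in the ICM it stood at 70.3 ± 24.6 (SD, n = 5) CPM in WT and at 6.38 ± 5.73 (SD, n = 5) in MUT. The labelled lineages matched their markers in sum, as 12 PrE markers together gave 162 to 546 CPM in EPI sums and 1494 to 6543 CPM in PrE sums. The lowest of these PrE sums, that of WT embryo 1, held 3 cells. One of them carried 11335 CPM of 10 trophectoderm markers against 319 CPM of PrE and 515 CPM of EPI markers, with Krt8 at 5848, Cdx2 at 99.4, and the PrE factors Sox17 and Gata4 both at 0.934 CPM. The other 2 cells of that sum held more EPI than PrE marker counts (3553 and 3133 against 2011 and 2320 CPM), together with Sox17 at 311 and 659 CPM. All EPI-labelled cells and the PrE-labelled cells of every other embryo had the higher sum for their own label. Tested differences that use WT PrE are also given without the trophectoderm-marked cell or without that embryo for the members named, while levels printed for WT PrE embryo 1 include the cell. The sums of WT PrE embryo 3 and MUT EPI embryo 2 are single cells.

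Values below follow the embryo order 13, 16, 20, 21 and 22 for WT ICM, 2, 10, 18, 23 and 24 for MUT ICM, 1, 2 and 3 for WT EPI and PrE, and 1, 2, 4 and 5 for MUT EPI and PrE. A gene was called when its adjusted p (edgeR's quasi-likelihood test, Benjamini-Hochberg over all genes tested) was under 0.05. The labels name no litters or days, so the p-values measure only the spread between these embryos. EPI and PrE were each compared with the same ICM sums of their genotype, so these comparisons share samples. With 3 to 5 embryos a group, all 10 genes were tested in every comparison.

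Egr1, an immediate early gene of a zinc-finger transcription factor, rose from ICM to EPI and from ICM to PrE in WT embryos, by 3.24 and 4.55 on the log2 scale. Ier2 and Fos had higher means in all 4 lineage groups at E3.75 than in either ICM group, but neither was called. Among the ETS and feedback genes, mean Etv5 was highest in EPI and mean Dusp4 highest in PrE, neither called between the lineages, while Dusp6 and Spry4 showed no group apart from its neighbours. No member was called between genotypes in any lineage. EPI lay above ICM in every embryo for 4 members in WT (Egr1, Ier2, Etv5 and Myc), as for 8.64% of all genes, and for 3 in MUT (Egr1, Ier2 and Etv5), as for 2.13%. PrE lay above ICM for 3 in WT (Egr1, Ier2 and Dusp4), as for 6.24% of all genes, and for 2 in MUT (Egr1 and Dusp4), as for 3.60%.

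**Figure D1:**
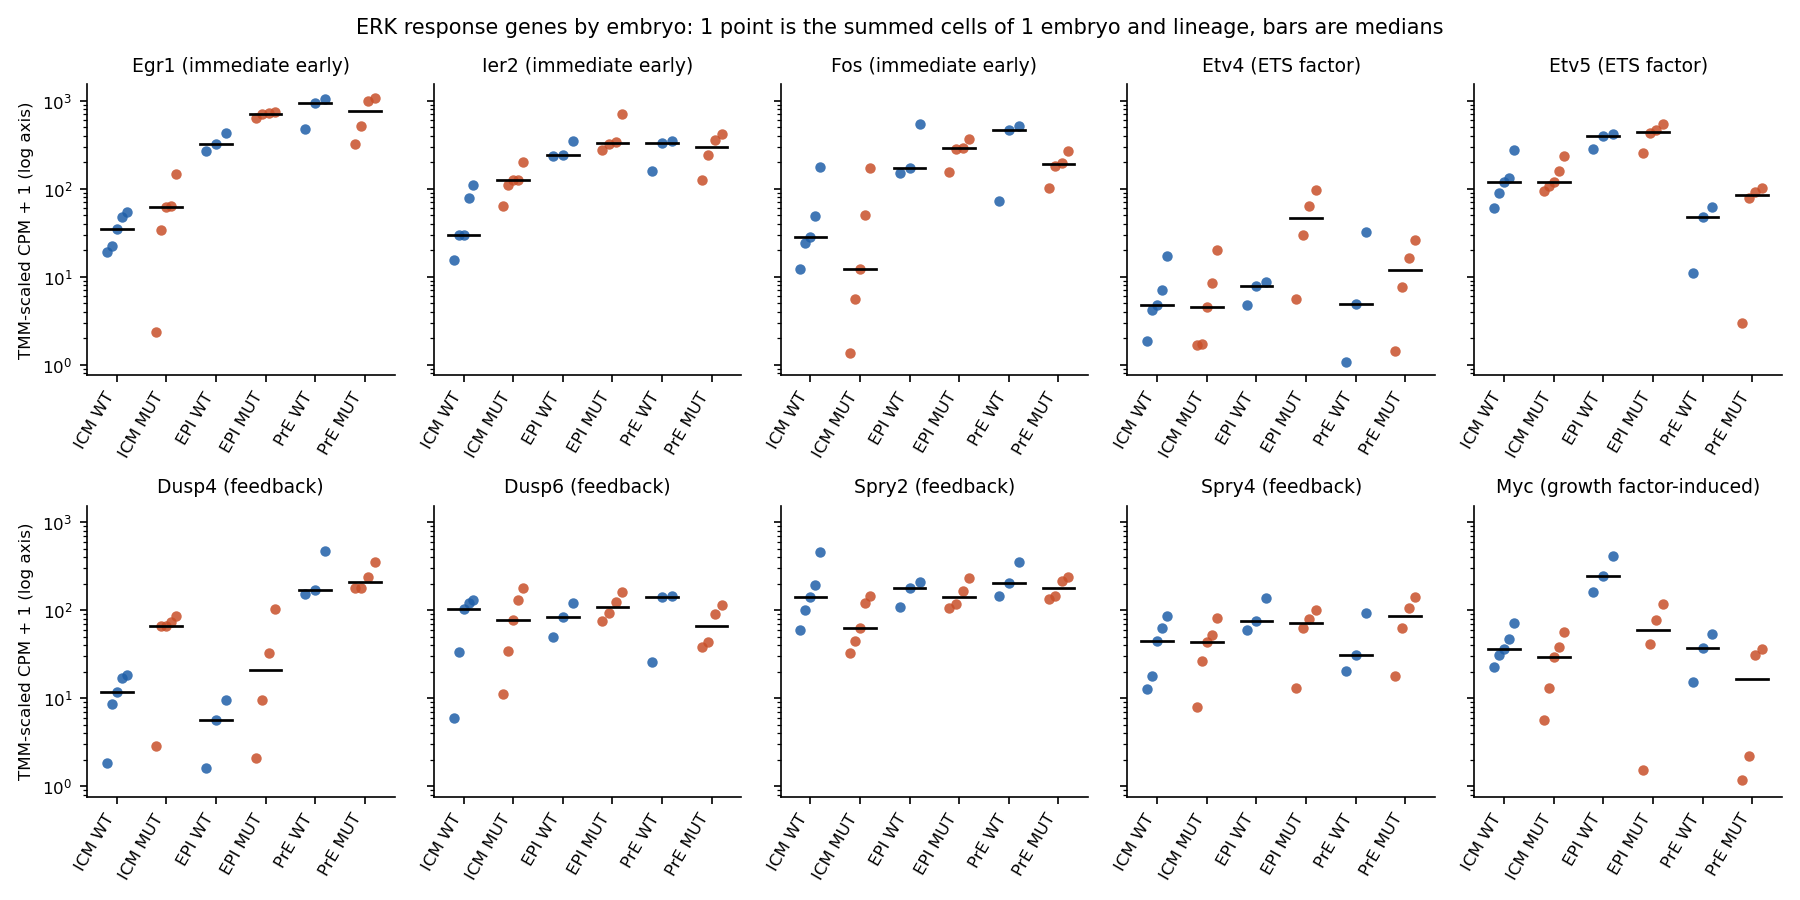
TMM-scaled CPM + 1 on a log axis for each of the 10 genes, with 1 point for each embryo and lineage sum, a bar at the group median, and the 6 groups along the x axis. Egr1 lies between 1.35 and 146 CPM in the 10 ICM sums and between 267 and 1078 CPM in the 14 sums of E3.75.

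Egr1 (ENSMUSG00000038418, chromosome 18, 34859823 to 34864984, plus strand; positions are those of GENCODE vM21 on GRCm38) was low in the ICM, at 52.99, 21.5, 33.97, 18.3 and 46.5 CPM in WT and 63.2, 146, 33.2, 60.97 and 1.35 CPM in MUT. In EPI it reached 267, 318 and 431 CPM in WT and 642, 711, 750.0 and 714 CPM in MUT. In PrE it reached 929.7, 473 and 1030.0 CPM in WT and 319, 994, 517 and 1078 CPM in MUT. Every E3.75 sum of either genotype thus lay above every ICM sum, and the closest pair was MUT ICM embryo 10 and WT EPI embryo 1. The 4 MUT EPI embryos also lay above the 3 WT EPI embryos with no overlap, whereas the PrE groups overlapped.

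In WT, the Egr1 difference between EPI and ICM was 3.24 (log2, SE 0.41; edgeR adjusted p = 0.0244), and that between PrE and ICM was 4.55 (SE 0.45; edgeR adjusted p = 0.00855). Among all genes tested, 0.172% were called higher in EPI and 0.243% higher in PrE. Of the 10 members, Egr1 alone was called in either comparison. An unadjusted p under 0.05 was reached by 5 members in each, beside 14.1% of all genes for EPI and 14.8% for PrE. Without the trophectoderm-marked cell the PrE difference was 4.34 (edgeR adjusted p = 0.00615), and without WT embryo 1 it was 4.43 (adjusted p = 0.0233). The call was lost in PrE without WT embryo 3, whose PrE sum is 1 cell (4.32, adjusted p = 0.0653). In EPI it was lost without E3.75 WT embryo 1, 2 or 3 (3.38, 3.28 and 3.05, adjusted p = 0.0927, 0.183 and 0.228) or E3.5 WT embryo 20 (3.23, adjusted p = 0.0869). The direction held in each of these fits.

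In MUT the Egr1 differences were not called, at 3.54 (SE 0.81; edgeR adjusted p = 0.178) for EPI and 3.56 (SE 0.87; edgeR adjusted p = 0.107) for PrE. By edgeR, 0 of 10 members were called in either MUT comparison with the ICM, beside 0.0682% of all genes for EPI and 0.507% for PrE. At an unadjusted p under 0.05 there were 5 members for EPI and 4 for PrE, beside 8.08% and 9.46% of all genes. DESeq2 called 3 and 1 members, and limma-trend called 4 and 4. DESeq2 also called more of all genes than edgeR did, as given in the last section. The limma-trend number over all genes is not given here. Whether the genotypes differ in these stage changes was tested as an interaction, and no member was called. MUT ICM embryo 24 bears on the PrE value: without its Egr1 level of 1.35 CPM the difference was 3.24 with an edgeR adjusted p of 0.0422.

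Ier2 (ENSMUSG00000053560, chromosome 8, 84661331 to 84662852, minus strand) encodes a small nuclear protein induced together with Egr1. Its ICM levels were 77.8, 29.2, 28.5, 14.6 and 111 CPM in WT and 201, 123, 110.5, 124 and 63.5 CPM in MUT. In EPI they were 347, 232 and 240.3 CPM in WT and 323, 277, 339 and 707 CPM in MUT, and in PrE 344, 159 and 333 and 126, 355, 238 and 422 CPM. EPI and ICM did not overlap in either genotype, nor did PrE and ICM in WT. In MUT, PrE embryo 1 lay below ICM embryo 2. The MUT difference between EPI and ICM was 1.69 (log2, SE 0.43; edgeR adjusted p = 0.178), and that between PrE and ICM 1.15 (SE 0.43; edgeR adjusted p = 0.362).

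Fos (ENSMUSG00000021250, chromosome 12, 85473890 to 85477273, plus strand) encodes a subunit of the AP-1 transcription factor. It ranged widely within the ICM, at 23.5, 177, 48.6, 27.3 and 11.2 CPM in WT and 172, 49.1, 11.3, 0.362 and 4.58 CPM in MUT. EPI stood at 537, 151 and 170.0 CPM in WT and 366, 292, 154 and 279 CPM in MUT, and PrE at 509, 70.96 and 458 and 100.1, 265, 196 and 179 CPM. The trophectoderm-marked cell gave 80.2% of the Fos counts of WT PrE embryo 1. In each genotype 1 ICM embryo, WT 16 and MUT 2, reached the E3.75 range, so the stages overlapped. Its group means were 57.6 ± 68.3 (SD, n = 5) CPM in WT ICM and 286 ± 218 (SD, n = 3) CPM in WT EPI.

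The 3 immediate early genes together summed to 60.2 to 437 CPM over ICM embryos and 545 to 1822 CPM over E3.75 sums. Of 25 other immediate early genes, a list that includes Jun, Junb, Atf3 and Dusp1, none was called by edgeR in any of the 12 comparisons, and between 0 and 9 a comparison had an unadjusted p under 0.05. Between PrE and ICM in MUT, 19 of 22 tested were higher, with a median difference of 1.47 against -0.06 over all genes tested. Between EPI and ICM in MUT the figures were 16 of 22 and 1.33 against -0.06. In WT they were 13 of 23 for EPI (0.70 against -0.14) and 16 of 24 for PrE (0.62 against -0.17). Dusp1, an immediate early phosphatase that acts on MAP kinases, had the smallest p in WT and was not called, at 7.08 ± 6.61 (SD, n = 5) CPM in ICM, 204 ± 104 (SD, n = 3) in EPI and 358 ± 189 (SD, n = 3) in PrE.

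Heat shock and handling-stress genes, which cell dissociation can induce, were not higher at E3.75 in sum. The 12 genes summed to 10178 to 26726 CPM in ICM sums and 5767 to 12686 CPM in E3.75 sums. Hspa8, a constitutive chaperone, fell by 1.14 (edgeR adjusted p = 0.0407) from ICM to EPI and by 1.25 (adjusted p = 0.0321) from ICM to PrE in WT, where 0.308% and 0.349% of all genes were called in either direction. Each Hspa8 call was lost in 6 of 8 fits that left out 1 embryo, with no change of sign. The stress-inducible Hspa1a and Hspa1b were at or near 0, with no sum above 15.7 CPM. The part of sample handling in the immediate early levels was not tested.

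Depth can be matched between the stages by keeping the ICM cells with at least 7528770 counts, the depth of the shallowest E3.75 cell; this left 16 WT cells of 5 embryos and 7 MUT cells of 3. Their median Egr1 was 0.3 CPM in WT and 0.595 CPM in MUT, against medians from 342 to 750.1 CPM over the E3.75 groups. Over all ICM cells median Egr1 was higher, at 6.31 and 38.3 CPM, so the kept cells were low in Egr1 among ICM cells. In the kept cells median Fos was 0.842 and 0.454 CPM, and median Ier2 7.76 and 65.8 CPM. The number of genes detected was not matched. This restriction was chosen after seeing the data.

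Etv5 (ENSMUSG00000013089, chromosome 16, 22381309 to 22439719, minus strand) encodes an ETS factor of the PEA3 group. It was highest in EPI, at 280.2, 400.5 and 412 CPM in WT and 255, 424, 465 and 546 CPM in MUT. ICM embryos held 271, 118, 88.02, 129.8 and 59.00 CPM in WT and 107, 237, 158, 93.7 and 117 CPM in MUT. PrE held 61.4, 46.6 and 9.93 CPM in WT and 89.7, 2, 78.1 and 101 CPM in MUT. EPI lay above both other groups of its genotype with no overlap, and within each of the 7 E3.75 embryos EPI held more than PrE.

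The Etv5 difference between EPI and PrE was 3.18 (log2, SE 0.66; edgeR adjusted p = 0.224) in WT and 2.69 (SE 0.85; edgeR adjusted p = 0.218) in MUT. Without WT embryo 1 the WT difference was 3.83 (adjusted p = 0.335), and without the trophectoderm-marked cell 2.87 (adjusted p = 0.259). Etv5 was not called in either genotype, nor was any other member by edgeR in these comparisons, where 0.0314% of genes in WT and 1.65% in MUT were called. Unadjusted p was under 0.05 for 4 members in WT (Egr1, Etv5, Dusp4 and Myc) and 2 in MUT (Etv5 and Dusp4). It was so for 9.35% of all genes in WT and 10.2% in MUT. DESeq2 called the same 4 and the same 2 members, and it called more of all genes than edgeR did, as given in the last section. Without MUT embryo 2, whose PrE sum held 1.996 CPM of Etv5, the MUT difference was 2.26 and was called (edgeR adjusted p = 0.0292). Between MUT EPI and MUT ICM the Etv5 difference was 1.57 (SE 0.37; edgeR adjusted p = 0.178). With the embryo as a replicate block, 0 genes in WT and 74 in MUT were called between EPI and PrE in place of 4 and 177, again with no member among them.

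Etv4 (ENSMUSG00000017724, chromosome 11, 101769742 to 101785371, minus strand), a close relative of Etv5, was far scarcer. Per kilobase of exon, mean Etv4 was 1.95 CPM in WT ICM and 1.98 in WT EPI, against 32.5 and 88.7 for Etv5. Its levels in EPI were 3.74, 6.92 and 7.79 CPM in WT and 4.55, 28.5, 96.1 and 61.9 CPM in MUT. Elsewhere it spanned 0.856 to 16.3 CPM in WT ICM, 0.674 to 19.1 in MUT ICM, 0.0782 to 31.3 in WT PrE and 0.435 to 25.2 in MUT PrE. Of the 4 MUT EPI embryos, 3 stood above every WT EPI embryo and embryo 1 stood within the WT range. That genotype difference was 2.995 (SE 0.99, unadjusted p = 0.0163; edgeR adjusted p = 0.622), and DESeq2 called it (adjusted p = 0.0392).

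Dusp4 (ENSMUSG00000031530, chromosome 8, 34807297 to 34819894, plus strand) encodes a nuclear phosphatase that inactivates ERK. It was the PrE-high member, at 151, 167 and 464 CPM in WT and 349, 178, 178 and 238 CPM in MUT. EPI held 0.613, 8.52 and 4.7 CPM in WT and 31.6, 1.11, 102 and 8.68 CPM in MUT. PrE exceeded EPI in all 7 embryos, and the lineages did not overlap in either genotype. EPI minus PrE was -5.84 (log2, SE 1.09; edgeR adjusted p = 0.224) in WT and -2.71 (SE 1.02; edgeR adjusted p = 0.352) in MUT. Without WT embryo 1 the WT value was -5.59 (adjusted p = 0.178), and without its trophectoderm-marked cell -5.97 (adjusted p = 0.227). The gap was smaller in MUT by 3.11 (SE 1.52), which the interaction test did not call (unadjusted p = 0.0515; edgeR adjusted p = 0.721). Without the trophectoderm-marked cell that interaction was 3.24 (unadjusted p = 0.0424; edgeR adjusted p = 0.678).

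**Figure D2:**
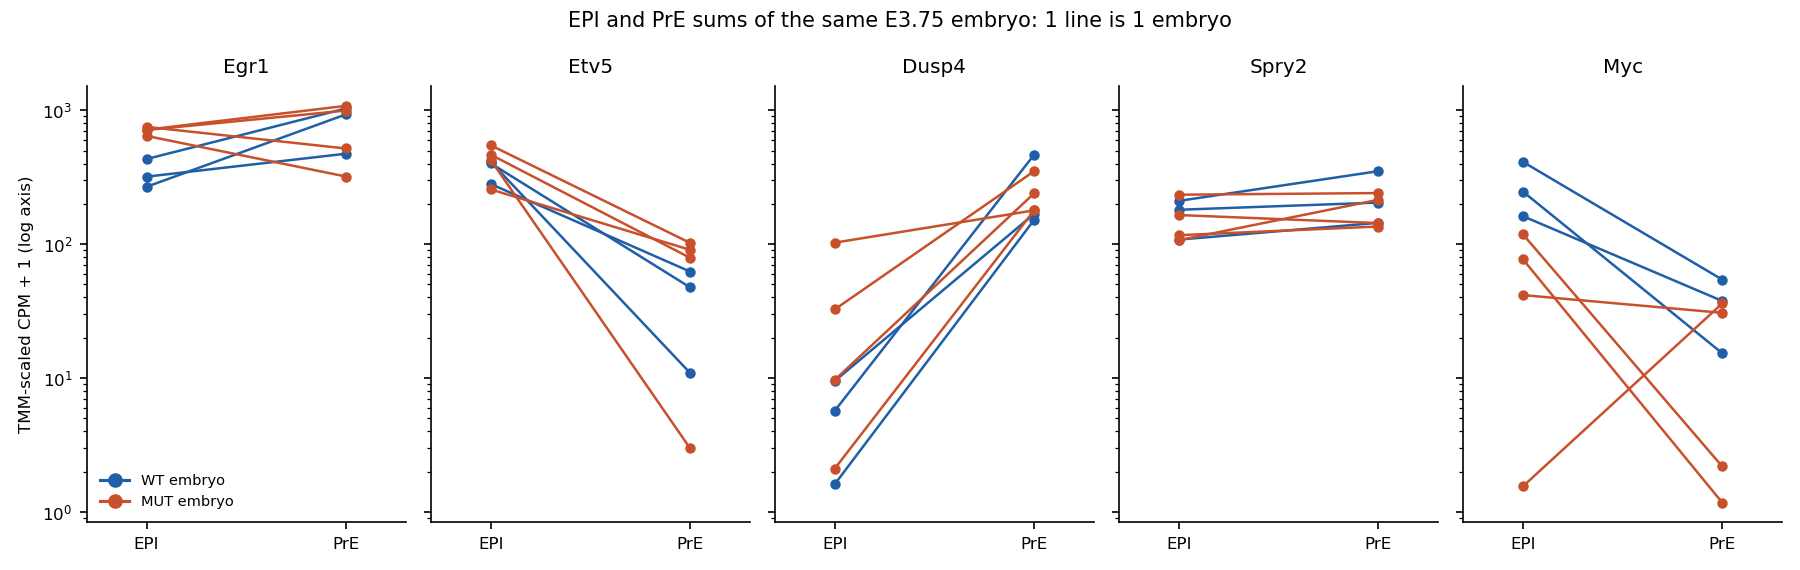
TMM-scaled CPM + 1 (log axis) of 5 genes in the EPI and PrE sums of the same E3.75 embryo, with 1 line for each of 3 WT and 4 MUT embryos. Etv5 lines fall and Dusp4 lines rise in 7 of 7 embryos, and Egr1 rises in the 3 WT embryos and in 2 of the 4 MUT embryos.

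From ICM to PrE in WT, Dusp4 went from 7.56, 0.829, 15.9, 10.9 and 17.2 CPM to the PrE levels above without overlap. It was named here after its values were seen: the difference was 4.65 (SE 0.82) with an edgeR adjusted p of 0.0523. Without the trophectoderm-marked cell, in which Dusp4 was 0.28 CPM, it was 4.78 (SE 0.79) and was called (edgeR adjusted p = 0.0432). In MUT the groups did not overlap either, with a difference of 2.01 (SE 0.72; edgeR adjusted p = 0.322), and ICM stood at 1.85, 65.3, 84.7, 64.3 and 72.6 CPM. In 4 of those 5 MUT ICM embryos Dusp4 was above every WT ICM embryo, and in embryo 2 it was 1.85 CPM.

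Within an embryo the other members were ordered less uniformly. EPI was higher than PrE for Egr1 in 2 of 7 embryos, Ier2 and Fos in 5, Etv4 in 5, Dusp6 in 4, Spry2 in 1, Spry4 in 3 and Myc in 6. In WT, Egr1 was higher in PrE in 3 of 3 embryos with no overlap between the groups, and its EPI minus PrE difference was -1.07 without the trophectoderm-marked cell, in which Egr1 was 1563 CPM, in place of -1.29 (edgeR adjusted p = 0.352 and 0.255). Without that cell the fitted WT differences of Fos and Ier2 turned from -0.31 to 0.32 and from -0.06 to 0.16, none called. Non-overlap of this kind was common at 3 embryos a group: among all genes, 7.02% were lower and 11.5% higher in EPI than in PrE with no overlap. In WT, 2 members were higher (Etv5 and Myc) and 2 lower (Egr1 and Dusp4). In MUT, with 4 embryos a group, Etv5 was higher, beside 4.01% of all genes, and Dusp4 lower, beside 6.15%. Fgf4, the EPI ligand of the pathway, rose in EPI over PrE by 7.59 (edgeR adjusted p = 0.0223) in WT and 8.31 (adjusted p = 0.000162) in MUT. The WT value was 7.64 without the trophectoderm-marked cell (adjusted p = 0.0163), and the WT call was lost without any 1 of the 3 embryos, while the MUT call held in 4 of 4 such fits. In MUT, PrE held 0.386 ± 0.193 (SD, n = 4) CPM of Fgf4.

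Dusp6 (ENSMUSG00000019960, chromosome 10, 99263231 to 99267489, plus strand) encodes the cytoplasmic ERK phosphatase, and its groups overlapped throughout. Its levels were 5.03, 32.6, 120.4, 103 and 131 CPM in WT ICM and 10.3, 129, 75.9, 33.6 and 177 in MUT ICM. EPI held 119, 48.03 and 82.2 CPM in WT and 158, 123, 92.8 and 75.1 in MUT, and PrE held 142, 25.2 and 142 and 89.4, 42.3, 114 and 37.7 CPM. The ICM range, 5.03 to 177 CPM, covered every E3.75 value. Group means from 70.8 to 112 CPM did not differ between neighbours beyond their SD.

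Spry2 (ENSMUSG00000022114, chromosome 14, 105891947 to 105896819, minus strand) encodes a Sprouty inhibitor of receptor signalling. In the ICM it held 57.98, 99.6, 139, 193 and 452 CPM in WT and 119, 44.1, 31.6, 61.4 and 144 CPM in MUT. EPI held 179.6, 209 and 107 CPM in WT and 164, 116, 233 and 106 in MUT, and PrE 203, 349.6 and 143 and 143, 134, 239.7 and 213 CPM. WT ICM embryo 22 was the highest of all 24 sums and MUT ICM embryo 18 the lowest, and all groups overlapped. Within an embryo PrE exceeded EPI in 6 of 7.

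Spry4 (ENSMUSG00000024427, chromosome 18, 38586247 to 38601415, minus strand) is another Sprouty gene. It held 16.7, 11.9, 61.3, 85.5 and 43.6 CPM in WT ICM and 6.91, 80.2, 42.2, 51.7 and 25.8 CPM in MUT ICM. EPI held 136, 59.4 and 73.9 CPM in WT and 79.3, 12.2, 99.1 and 61.2 in MUT, and PrE 19.6, 92.2 and 30.1 and 62.02, 17.1, 139 and 106 CPM. Its groups overlapped throughout. Spry4 has 2 overlapping genes on the opposite strand, which held 0% of its counts.

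Myc (ENSMUSG00000022346, chromosome 15, 61985391 to 61990374, plus strand) was highest in WT EPI, at 410.3, 161 and 246 CPM. MUT EPI held 75.9, 0.554, 40.6 and 117 CPM, below every WT EPI embryo. ICM held 71.5, 21.5, 46.2, 29.9 and 35.6 CPM in WT and 4.72, 11.98, 28.2, 54.9 and 37.2 in MUT, and PrE 53.3, 36.6 and 14.3 and 0.174, 35.03, 29.7 and 1.19 CPM. In WT, EPI overlapped neither ICM nor PrE. Its EPI to PrE difference there was 2.94 (SE 0.59; edgeR adjusted p = 0.224; 2.98 without WT embryo 1), and that between EPI and ICM, named after its values were seen, was 2.69 (SE 0.46; edgeR adjusted p = 0.0535).

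The order of group means shows which neighbours stood apart, taking a gap larger than either SD and no overlap as the measure. For Egr1, WT PrE (811 ± 297 (SD, n = 3) CPM), MUT PrE (727 ± 367 (SD, n = 4)) and MUT EPI (704 ± 45.1 (SD, n = 4)) were not separated. WT EPI (339 ± 83.9 (SD, n = 3)) stood apart from its neighbour MUT EPI, though not from MUT PrE, whose embryo 1 lay within the WT EPI range, then MUT ICM (60.99 ± 53.9 (SD, n = 5)) apart again, and WT ICM (34.7 ± 15.1 (SD, n = 5)) was not apart from it. Ier2 had its break between WT EPI (273 ± 64.1 (SD, n = 3)) and MUT ICM (125 ± 49.6 (SD, n = 5)). Etv5 had its break between WT EPI (364 ± 72.9 (SD, n = 3)) and MUT ICM (143 ± 57.9 (SD, n = 5)), Dusp4 between MUT PrE (236 ± 80.9 (SD, n = 4)) and MUT ICM (57.8 ± 32.3 (SD, n = 5)), and Myc between WT EPI (272 ± 127 (SD, n = 3)) and MUT EPI (58.6 ± 49.8 (SD, n = 4)). Fos, Etv4, Dusp6, Spry2 and Spry4 had no such break.

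Setting genes side by side per kilobase of exon assumes reads along the whole transcript, and the labels do not name the library method. On that scale mean Ier2 was the highest member at E3.75, from 179 CPM in WT EPI to 270.5 CPM in MUT EPI. Mean Egr1 was second in MUT EPI (157), WT PrE (181) and MUT PrE (162), and in WT EPI (75.6) it came after Fos, Myc, Etv5 and Spry2. Mean Spry2 was the highest member in WT ICM, at 90.2 CPM, above Ier2 (34.2) and Etv5 (32.5). In MUT ICM the highest was Ier2 (81.8).

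**Figure D3:**
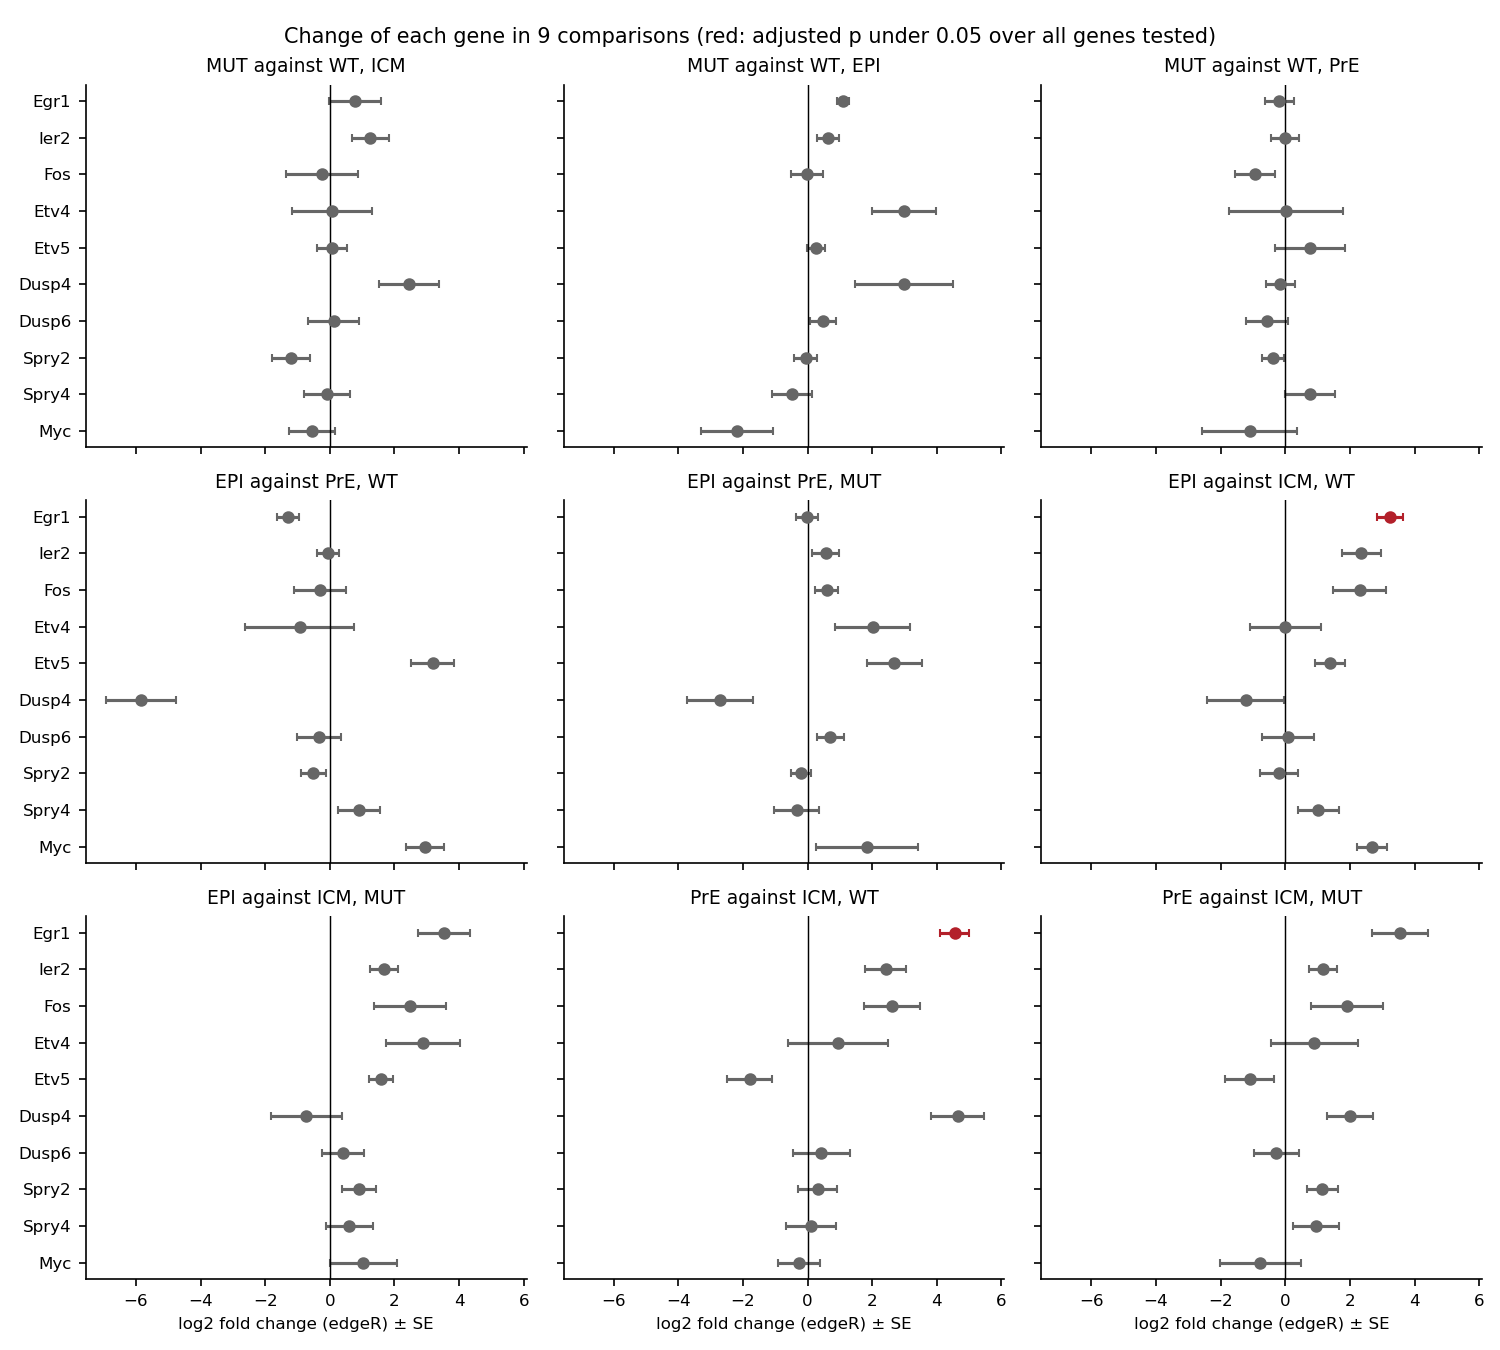
log2 fold change of each gene with its SE as the bar, in 9 comparisons of genotypes, lineages and stages. The 2 red points, Egr1 in WT EPI and in WT PrE against WT ICM, are the calls, at 3.24 and 4.55.

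Between genotypes, no member was called by edgeR in the ICM, EPI or PrE, and 0% of all genes tested were. At an unadjusted p under 0.05 stood 2 members in the ICM (Ier2 and Dusp4), 2 in EPI (Egr1 and Etv4) and 0 in PrE, beside 815, 570 and 545 of all genes. DESeq2 called 0, 2 and 0 members, and limma-trend called none. Over all genes DESeq2 called 108, 187 and 157.

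In the ICM, Dusp4 differed by 2.45 (log2, SE 0.92, unadjusted p = 0.018; edgeR adjusted p = 0.727), Ier2 by 1.26 (SE 0.57; edgeR adjusted p = 0.749) and Spry2 by -1.20 (SE 0.59; edgeR adjusted p = 0.773). The groups overlapped for every member, and did not for 1.66% of all genes. A limma-voom fit took counts summed by embryo and title letter, with the letter as a term and the embryo as a random effect. It called Dusp4 (4.60, limma-voom adjusted p = 0.00135), where the fit on embryo sums gave 2.45. Each embryo gave several rows to the limma-voom fit, while genotype varies only between embryos. The share of all genes that it called is not given here. The 12 PrE markers summed to 204 to 4956 CPM over MUT ICM embryos and 443 to 1411 CPM in WT, which overlapped. Of the 11 tested, 8 were higher in MUT and 0 were called. Sox17, 1 of the 12, stood at 4.04 to 176 CPM in MUT and 0.295 to 5.7 CPM in WT. The 10 EPI markers summed to 908 to 1967 CPM in MUT and 2872 to 3937 CPM in WT. The sum of PrE markers exceeded that of EPI markers in 30 of the 55 ICM cells without Stat3 and in 11 of the 64 wild-type ones. Of those 30 cells, 15 were in embryo 10. The cells with the higher PrE sum had median Dusp4 of 59.6 CPM in MUT and 28.0 CPM in WT, and the remaining cells 17.3 and 0.289 CPM. In MUT embryos 2 and 23 the remaining cells had the higher median (1.12 against 0.689 and 71.7 against 20.6 CPM). Over the remaining cells alone, a choice made after seeing the data, the Dusp4 difference was 2.80 (SE 1.24, unadjusted p = 0.0371; edgeR adjusted p = 0.818).

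In EPI, Egr1 was higher in MUT by 1.10 (log2, SE 0.19, unadjusted p = 0.00045; edgeR adjusted p = 0.325), as 4 of 4 MUT embryos lay above 3 of 3 WT embryos. Groups did not overlap in that direction for 1.89% of all genes, and in the other direction, in which Myc was, for 5.87%. The embryos with title letter A, all male, allow the genotypes to be compared within a letter: Egr1 was 750.0 and 714 CPM in MUT embryos 4 and 5 and 431 CPM in WT embryo 3. Within that letter Myc was 40.6 and 117 CPM against 246 CPM, and Etv4 96.1 and 61.9 CPM against 7.79 CPM. Dusp4 differed by 2.98 (SE 1.52; edgeR adjusted p = 0.9999), with overlap. All 4 MUT embryos of E3.75 were male by their Y-linked and Xist counts, and 1 of the 3 WT embryos. With sex as a term the Egr1 difference was 0.764 and that of Etv4 2.66. Where letter or sex stood in the fit, no member was called.

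In PrE no member separated the genotypes, beside 6.71% of all genes whose groups did not overlap in either direction. The 3 of smallest p were Fos at -0.94 (SE 0.62), Spry2 at -0.37 (SE 0.34) and Spry4 at 0.76 (SE 0.76), each with an edgeR adjusted p that rounds to 1. Without the trophectoderm-marked cell, which held 1212 CPM of Fos, they were -0.31, -0.44 and 0.67. The Spry2 sign turned to 0.32 with sex as a term, 0.62 with the title letter and 0.031 without WT embryo 2. The genotype effects of EPI, PrE and ICM were set against each other by interaction tests, and edgeR and DESeq2 called 0 of 10 members in each of the 3, with 0 at an unadjusted p under 0.05. The nearest were Dusp4 for EPI against PrE (above) and for PrE against ICM (-2.60, SE 1.36, unadjusted p = 0.0687; edgeR adjusted p = 0.523; -2.73 without the trophectoderm-marked cell), and Etv4 for EPI against ICM (2.93, SE 1.90; edgeR adjusted p = 0.667).

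High Egr1 levels were frequent in E3.75 cells and infrequent in ICM cells. It exceeded 100 CPM in 7 of 64 WT and 16 of 55 MUT ICM cells, in 18 of 19 WT and 9 of 9 MUT EPI cells, and in 9 of 10 WT and 14 of 14 MUT PrE cells. Of the 16 MUT ICM cells, 13 were among the 19 of embryo 10, and the other 4 embryos gave 3 of 36. The median cell held 6.31 CPM in WT ICM and 38.3 CPM in MUT ICM (2.45 without embryo 10), and 342, 599, 621 and 750.1 CPM in WT EPI, MUT EPI, WT PrE and MUT PrE. Fos was above 100 CPM in 15 of 64 WT and 10 of 55 MUT ICM cells, in 14 of 19 WT and 8 of 9 MUT EPI cells, and in 5 of 10 WT and 10 of 14 MUT PrE cells. WT embryo 16 held 9 of the 15 WT ICM cells, and MUT embryos 2 and 10 held 4 and 6, all of the 10 MUT ICM cells.

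Etv5 exceeded 100 CPM in 19 of 19 WT and 9 of 9 MUT EPI cells, and in 2 of 10 WT and 4 of 14 MUT PrE cells. In the ICM it did so in 24 of 64 WT and 30 of 55 MUT cells, a mixture of high and low cells. MUT ICM embryo 10 gave 15 of 19 cells, and the other MUT ICM embryos 15 of 36. Dusp4 mirrored Etv5 at E3.75, above 100 CPM in 0 of 19 WT and 2 of 9 MUT EPI cells and in 8 of 10 WT and 12 of 14 MUT PrE cells. In the ICM that level was reached in 2 of 64 WT cells, both of embryo 22, and in 13 of 55 MUT cells, of which 6 were in embryo 10 and 5 in embryo 18. Myc exceeded 100 CPM in 15 of 19 WT and 3 of 9 MUT EPI cells, and in 2 of 10 WT and 0 of 14 MUT PrE cells.

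**Figure D4:**
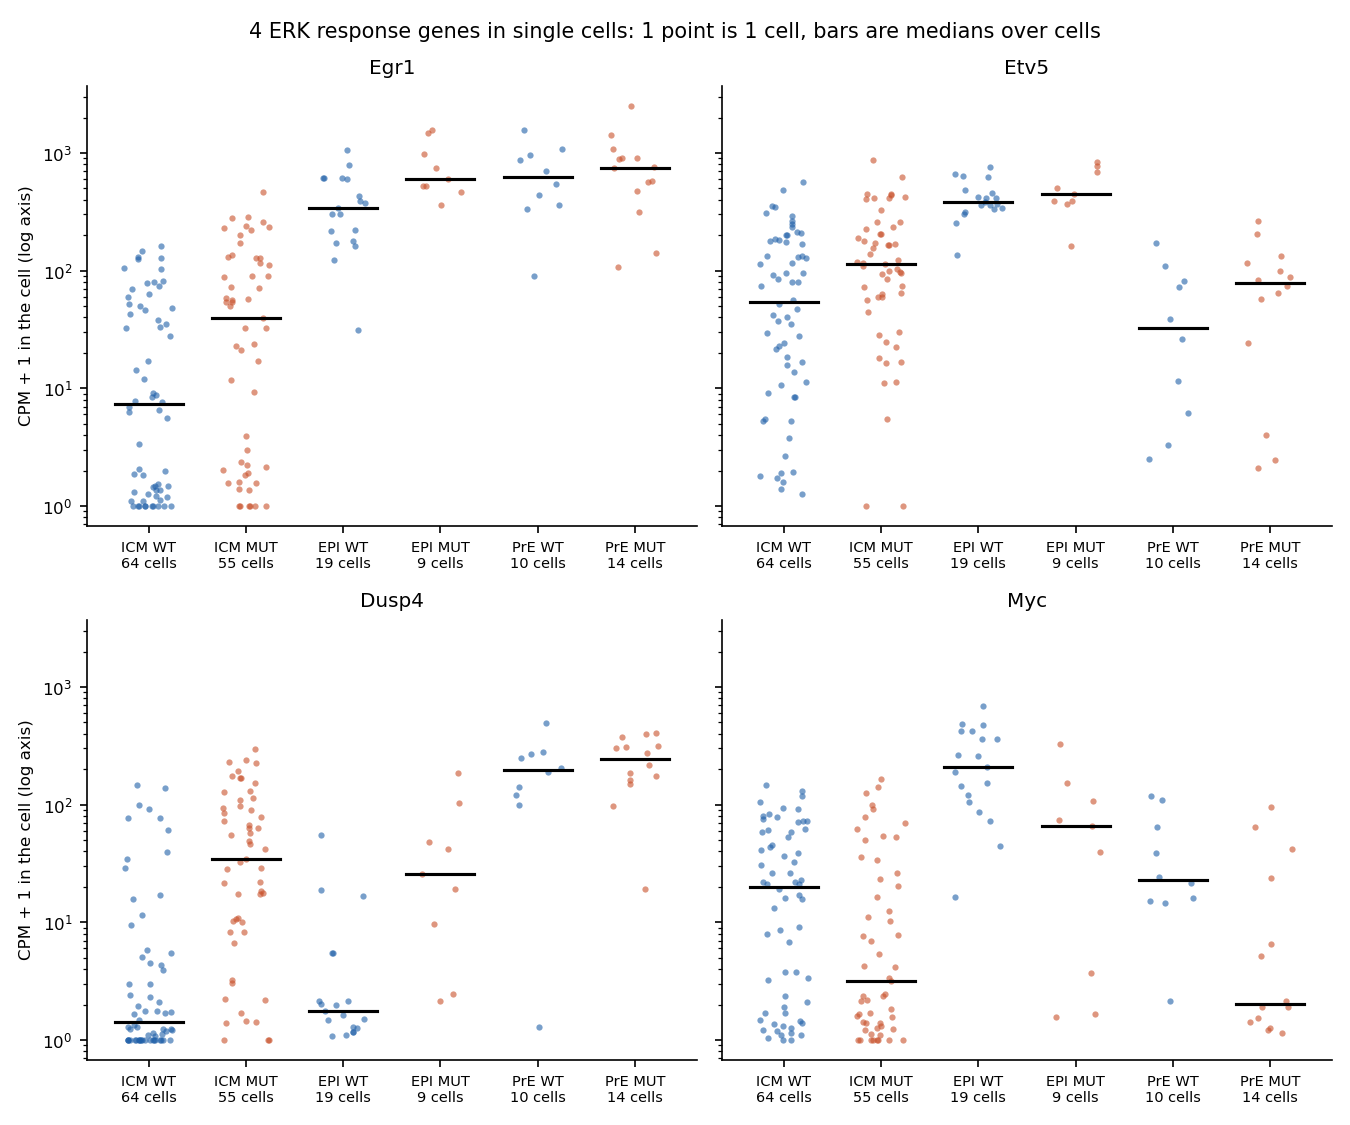
CPM + 1 in single cells (log axis) for 4 of the genes, with 1 point for each cell, a bar at the median over cells, and the number of cells of each group below its name. Median Dusp4 is 0.416 CPM in WT ICM, 33.6 CPM in MUT ICM, 195 CPM in WT PrE and 245 CPM in MUT PrE.

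A count of Dusp4 was present in 68.8% of WT ICM cells (42.9% to 81.8% over embryos) and 94.5% of MUT ICM cells (80.0% to 100% over embryos). After each cell was thinned to 1000000 counts, which left 61 WT and 47 MUT cells, the shares were 50.8% and 91.5%. Over the same thinned cells the shares were 65.6% and 80.9% for Egr1, 83.6% and 100% for Ier2, and 65.6% and 63.8% for Fos. A single cell often carried much of a sum: over the 14 sums of more than 4 cells, the highest cell gave a median of 28.5% of the Spry2 counts and 57.0% of the Etv4 counts, the lowest and highest of the 10 genes.

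Within groups of cells, members of a class were weakly related in the median over pairs. Spearman correlations across cells were taken after removing each embryo's mean, and at E3.75 the mean of each embryo and lineage. They had a median of 0.163, 0.277 and 0.338 over the 3 pairs of immediate early genes in WT ICM, MUT ICM and E3.75 cells. The 15 pairs of ETS and feedback genes had medians of 0.092, 0.066 and 0.189, and the 18 pairs between the classes 0.0093, 0.068 and 0.0095, so that in MUT ICM the ETS and feedback genes were no closer to each other than to the immediate early genes. The strongest immediate early pair was Egr1 with Ier2, at 0.192, 0.463 and 0.569. These are descriptions over 64, 55 and 52 cells that share embryos and libraries. The E3.75 cells pool both lineages and genotypes after that centring.

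**Figure D5:**
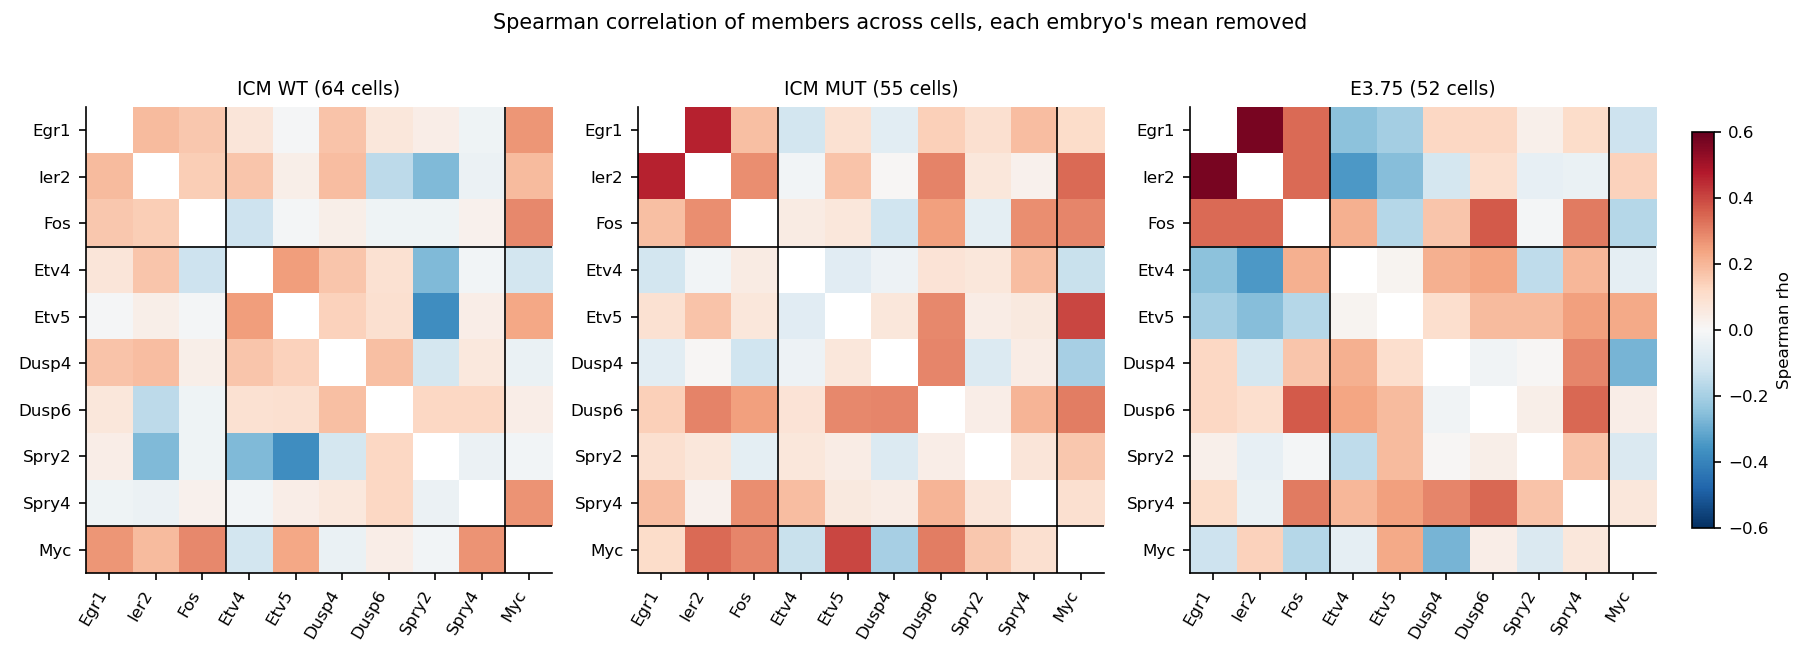
Spearman correlation (colour scale from -0.6 to 0.6) between each pair of the 10 genes across cells, in WT ICM, MUT ICM and E3.75 cells. Each embryo's mean was removed first, and at E3.75 the mean of each embryo and lineage. Black lines part the immediate early genes, the ETS and feedback genes and Myc. The block of immediate early genes has medians of 0.163, 0.277 and 0.338, above those of the ETS and feedback block. In WT ICM a pair of ETS and feedback genes lies further from 0, at -0.37.

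Some members followed lineage markers among ICM cells. Etv5 and the EPI factor Nanog had correlations of 0.24 in WT and 0.51 in MUT, and Myc and Nanog 0.52 and 0.53. Dusp4 and the summed PrE markers had 0.24 and 0.39. Etv5 and Spry2 ran opposite in WT ICM, at -0.37, and near 0 in MUT, at 0.04. In WT ICM Dusp4 also correlated with log10 depth at -0.37, so that its level there was lower in deeper cells.

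Over the 24 sums, which share embryos at E3.75 and differ in stage, Egr1 correlated with Ier2 at 0.90 (Spearman), Ier2 with Fos at 0.78 and Egr1 with Fos at 0.72. Etv5 and Dusp4 stood at -0.62. The 3 genes most alike each member were taken from 16568 genes by the same measure. For Egr1 they were Ier2 (0.90), Egr2 (0.90) and Cdh1 (0.89). Within the 10 ICM sums these were 0.79, 0.51 and 0.61, and within the 14 of E3.75 they were 0.61, 0.75 and 0.61. For Ier2 they were Egr1, Dusp1 (0.87) and Ptges3 (0.85), and for Fos they were Fosb (0.84), Plk3 (0.78) and Ier2. Fos and Ier2 had -0.14 within the ICM sums and 0.58 within E3.75.

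For Etv5 the most alike were Cobl (0.90), Fn1 (0.83) and Senp3 (0.83), and for Etv4 they were Gm14276 (0.80), Coq10a (0.75) and Casc4 (0.75). For Dusp4 they were Hpcal1 (0.87), the PrE factor Sox17 (0.86) and Apobec2 (0.86), and Sox17 held 0.82 within the ICM sums and 0.80 within E3.75. Dusp6 had Naa15 (0.71), Mmab (0.67) and Tmem218 (0.65), Spry2 had Cbx3 (0.81), Tmsb10 (0.79) and Pfas (0.77), and Spry4 had 2300009A05Rik (0.73), 3010003L21Rik (0.73) and Gm10351 (0.73). The genes named for Spry4 were scarce, at mean levels of 0.97, 1.44 and 0.38 CPM, and had 0.12, 0.74 and 0.62 within the ICM sums. For Myc the most alike were Pla2g4e (0.83), E330020D12Rik (0.78) and Lap3 (0.76). Within the ICM sums these had 0.37, 0.62 and 0.53, and the genes named for Etv5 had 0.53, 0.39 and 0.53. Spry2 and Spry4, the 2 Sprouty genes, had 0.49 with each other.

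The rest of the pathway was read from 2 lists. Of 19 other transcriptional targets and feedback genes of ERK, edgeR called Bmp4 in MUT, higher in EPI than in PrE by 3.95 (adjusted p = 0.0245) and lower in PrE than in ICM (-4.07, adjusted p = 0.0287), beside 1.65% and 0.507% of all genes. These calls were lost in 3 of 4 and 6 of 9 fits that left out 1 embryo. Bmp4, a ligand of the BMP pathway, also stands in the EPI marker list. In the stage comparisons 11 of 17 were higher in EPI in WT and in MUT, with medians of 0.67 and 0.34, and 12 of 18 and 13 of 17 in PrE, with medians of 1.12 and 1.28, against -0.17 to -0.06 over all genes tested, of which 45.1% to 47.8% were higher.

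Of 26 genes for FGF ligands, receptors and the RAS to ERK cascade, calls fell on the ligand, 2 receptors and 1 kinase, in comparisons where 0.0314% (EPI against PrE, WT), 1.65% (the same in MUT) and 0.349% (PrE against ICM, WT) of all genes were called. Fgf4 fell by 6.40 (edgeR adjusted p = 0.0495) from ICM to PrE in WT. In MUT the receptor genes Fgfr2 (-8.41, adjusted p = 0.00365) and Fgfr3 (-8.03, adjusted p = 0.00371) were lower in EPI than in PrE, with Fgfr2 at 68.5 ± 36.4 (SD, n = 4) CPM in PrE and 0.206 ± 0.152 (SD, n = 4) in EPI, and Fgfr3 at 97.8 ± 81.01 (SD, n = 4) and 0.362 ± 0.0808 (SD, n = 4). Map2k2, the gene of the ERK kinase MEK2, rose by 4.01 from ICM to PrE in WT (adjusted p = 0.04996), from 13.1 ± 11.2 (SD, n = 5) to 208 ± 28.02 (SD, n = 3) CPM. Without the trophectoderm-marked cell the Fgf4 and Map2k2 differences were -6.44 and 4.03 and were still called (adjusted p = 0.0432 and 0.0456), but both calls were lost in 8 of 8 fits that left out 1 embryo. Those of Fgfr2 and Fgfr3 were each lost in 2 of 4. No sign turned in these fits. Of 25 cascade genes tested, 20 were higher in PrE and 17 in EPI than in ICM in WT, and 15 and 12 in MUT, beside 45.1%, 45.4%, 47.8% and 47.2% of all genes.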

How the data were processed

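What the authors deposited is a table of raw read counts, with 1 column for each of 171 single cells. The submitters' processing notes name STAR and HTSeq as tools and mm10 as the mouse build, without roles; versions, the strand setting and the library method were not found in the labels, so reads of overlapping or near-identical genes may be shared. Whether PCR copies were collapsed is likewise not known here. Members and gene lists were chosen with earlier results of these data known, and no list was given a p of its own.

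Symbols and positions came from GENCODE vM21 (49326 of 49671 rows matched). The number after the genotype in a title was taken as the embryo. Cells held 163822 to 25095390 counts, no 2 had identical counts, none was removed, and doublets were not searched for. Counts were summed per embryo and lineage and tested with edgeR 4.0.16 in R 4.3.3 (TMM, filterByExpr with a minimum count of 10, quasi-likelihood, robust); an SE is the absolute log2 fold change over the square root of F and restates the test. The scripts were tested on simulated data. Printed CPM use 1 TMM scaling over all 24 sums. Levels are given for every member; folds and tests for members called in a comparison, otherwise for the 3 of smallest p, and of other lists for at most 3 called genes or 1 of smallest p. Likeness is Spearman's rho on log2(CPM + 1). Alternatives were RLE scaling, no low-count filter, DESeq2 1.42.0, limma 3.58.1, removal of 9 shallow ICM cells (3 scaled median absolute deviations below the stage median in depth or genes), of single-cell sums or of each embryo, and terms for sex, title letter and replicate number. Leaving out the trophectoderm-marked cell, the split of ICM cells by markers and the matched depth were added after seeing the data. EPI and PrE sums come from the same embryos: deviations from the group means correlated at 0.0540 to 0.129 within an embryo and at -0.0890 to 0.0546 between embryos. Python 3.11.15, numpy 2.4.6, pandas 2.3.3, scipy 1.17.1 and matplotlib 3.10.9 made the descriptions and figures.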

Additional observations from a re-analysis of the deposited data

Results flagged for a closer look

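In 4 of 40 groups of 4 or 5 embryos examined (10 genes in 4 groups), 1 embryo lay far from the others by Dixon's ratio, which chance alone flags in about 1 in 20 groups. Ier2 in MUT EPI embryo 5 was 707 CPM, with the next embryo at 339 CPM. Fos in WT ICM embryo 16 was 177 CPM, with the next at 48.6 CPM. Fos in MUT ICM embryo 2 was 172 CPM, with the next at 49.1 CPM. Dusp4 in MUT ICM embryo 2 was 1.85 CPM, with the next at 64.3 CPM, the 1 case in which the far embryo was the lowest.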

How the results depend on the processing

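The counts that follow are members called at an adjusted p under 0.05, of 10. Counts over all genes are given for DESeq2, here or above. They are not given for limma-trend, limma-voom, the unfiltered fits or those that left out cells or embryos. The member counts of those fits therefore have no share of all genes beside them. DESeq2 called 2 in MUT against WT EPI, 4 in EPI against PrE in WT and 2 in MUT, 3 in EPI against ICM in WT and 3 in MUT, and 3 and 1 in PrE against ICM. Limma-trend, which weights cells equally, called 1 in EPI against PrE in WT, 7 and 4 in EPI against ICM and 4 and 4 in PrE against ICM in WT and MUT. With no low-count filter edgeR called 2 (WT) and 1 (MUT) in EPI against ICM and the same numbers in PrE against ICM. The title letter in a limma-voom fit, in which each embryo gave several rows, gave 1 in MUT against WT ICM. PrE against ICM in WT had 0 without single-cell sums and 2 without the trophectoderm-marked cell. Leaving out 1 embryo gave 0 to 3 in EPI against ICM in WT, 0 to 2 in PrE against ICM in WT, 0 to 1 in EPI against PrE in MUT and 0 to 1 in PrE against ICM in MUT. The 3 were Egr1, Etv5 and Myc without E3.5 WT embryo 13, and the 2 were Egr1 and Dusp4 without E3.5 WT embryo 16. The sign turned for Spry2 in MUT against WT PrE (-0.37), to 0.32 with sex, 0.62 with the title letter and -0.60 to 0.031 leaving out 1 embryo (0.031 without WT embryo 2), and for Spry4 there (0.76), to -0.38 with the embryo number as a replicate block. Without the trophectoderm-marked cell the sign of 5 differences not called also turned: Fos (-0.31 to 0.32) and Ier2 (-0.06 to 0.16) in EPI against PrE in WT, and Egr1 (-0.19 to 0.031), Ier2 (-0.0014 to 0.22) and Etv4 (0.020 to -0.053) in MUT against WT PrE. MUT and WT embryos share only a number, and that block called 0 members in EPI and PrE, with Egr1 in EPI at 1.27. The embryo as a replicate block of EPI and PrE changed no call of a member, with Etv5 at 3.48 in WT and 3.14 in MUT. Over all genes the calls rose from 4 to 727, 177 to 631, 43 to 1069, 8 to 414, 46 to 1198 and 61 to 556 with DESeq2 (EPI against PrE, EPI against ICM and PrE against ICM, WT then MUT), and from 0 to 675, 708 and 870 in the interactions. Sex as a term called 217 genes in MUT against WT PrE. RLE scaling and removal of shallow cells left every count of members as it was. The cause of these differences was not tested. Single-cell PrE and EPI sums and 3 to 5 embryos a group limit the precision of every fold.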
